A study of Homo sapiens with 6 samples.

Results

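The core splicing factors and heterogeneous nuclear ribonucleoproteins (hnRNPs) of MDA-MB-231 cells were examined after knockdown of PUS1. The set held 72 of the 60605 genes in the deposited table. Members were picked by gene symbol, as the SRSF, HNRNP, SNRP, SF3A, SF3B, U2AF and PRPF families. The set was chosen with earlier results of these data known. The 58 symbols ending in P and a number, the form given to processed copies, were dropped. MDA-MB-231 is a triple-negative breast cancer line with mesenchymal features. The shControl group carried a control hairpin and the shPUS1 group a hairpin against PUS1, both given by lentivirus (pLKO.1) with puromycin selection, with 3 libraries of poly(A) RNA each. PUS1 is a pseudouridine synthase, an enzyme that isomerises uridine in tRNAs and other RNAs. The libraries are labelled as biological replicates, but whether they came from separate infections is not given in the sources used here. The p-values therefore measure the spread between these libraries, which may be technical. Which hairpin the shPUS1 cells carried is likewise not given. The deposited names of the 3 shPUS1 libraries all carry the same knockdown number, whose meaning is not stated.

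The spliceosome removes introns from pre-mRNA in ordered steps. U1 and U2 small nuclear ribonucleoproteins (snRNPs) mark the ends of the intron with help from U2AF and the SF3A and SF3B complexes. The U4/U6.U5 tri-snRNP with its PRPF proteins then joins and is rearranged into the catalytic form. SR proteins bind exonic enhancers and recruit this machinery, while hnRNPs coat nascent RNA and often act at silencers. Pseudouridine is abundant in the snRNAs themselves, and many breast cancers show altered levels of SR proteins.

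The 72 members comprised 12 SR proteins, 24 hnRNPs, 12 Sm and other SNRP proteins, 9 subunits of SF3A and SF3B, 2 U2AF subunits and 13 PRPF proteins. They lay on 20 chromosomes, and the deposited pathway annotation placed 52 of them in the spliceosome. Of the 72, 66 passed the filter on low counts. SNRPN and the HNRNPC-like genes HNRNPCL1, HNRNPCL2, HNRNPCL3 and HNRNPCL4 had 0 counts in every library, and SRSF12 had at most 2. In GENCODE release 29, 18.6% of the 100-base stretches of SNRPN transcripts also occur in other genes. For the HNRNPC-like genes the share is 37.5% to 87.2%. How reads shared between genes were counted is not given in the sources used here.

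PUS1, the targeted gene, stood at 2.57, 4.66 and 2.18 FPKM in shControl replicates 1 to 3 and at 1.13, 0.95 and 0.93 FPKM in shPUS1 replicates 1 to 3. FPKM is the count of a gene divided by its exonic length and by the total of its library. The 2 groups did not overlap, and the log2 fold change was -1.62 (SE 0.318, adjusted p = 0.0462, edgeR). The call was lost without shControl replicate 1 (adjusted p = 0.0905) and without any 1 of the shPUS1 replicates (adjusted p of 0.192 to 0.253), fits in which 0 genes of the whole table were called lower. Library totals ran from 14241505 to 19625998 estimated counts. shControl replicate 2 stood apart. Its Pearson r with the other controls over log2 CPM was 0.9505 and 0.9521, where the other pair had 0.981. With the shPUS1 libraries, shControl replicates 1 and 3 had 0.9659 to 0.9773 and shControl replicate 2 had 0.9356 to 0.9394. The shPUS1 libraries had 0.9872 to 0.9906 among themselves. VIM, CD44, EGFR, AXL and FOSL1, genes taken beforehand to be present in this line, were all at 19.33 FPKM or more. ESR1, PGR, FOXA1 and PTPRC were at 0.04 FPKM or less and CDH1 at 0.18 FPKM or less. GATA3 reached 2.16 FPKM.

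The promoters of 63 members were found in the RefSeq table (GRCh38.p14), which holds 250 bases before and 50 after each start. Where a symbol had several, the first listed was used. SNRPD2, SRSF5 and PRPF6 had the smallest p of their families and no transcript stretch shared with another gene. SF3A3 met the same conditions but is not shown. The promoters of SNRPD2, SRSF5 and PRPF6 are shown 5′ to 3′. They lie at chr19:45692267-45692566 on the minus strand, chr14:69766892-69767191 on the plus strand and chr20:63980882-63981181 on the plus strand. Capitals mark matches to the 5 motifs searched on both strands. These were the E-box CACGTG, the CCAAT box of those 5 letters, the GC box GGGCGG, the TATA motif TATAAA and the ETS core CCGGAAG.
SNRPD2: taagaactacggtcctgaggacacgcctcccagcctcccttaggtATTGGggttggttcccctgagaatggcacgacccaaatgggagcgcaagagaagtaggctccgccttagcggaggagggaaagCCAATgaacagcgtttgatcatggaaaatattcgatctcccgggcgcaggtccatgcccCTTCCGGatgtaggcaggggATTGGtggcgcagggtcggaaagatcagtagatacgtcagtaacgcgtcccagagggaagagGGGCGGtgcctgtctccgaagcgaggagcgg
SRSF5: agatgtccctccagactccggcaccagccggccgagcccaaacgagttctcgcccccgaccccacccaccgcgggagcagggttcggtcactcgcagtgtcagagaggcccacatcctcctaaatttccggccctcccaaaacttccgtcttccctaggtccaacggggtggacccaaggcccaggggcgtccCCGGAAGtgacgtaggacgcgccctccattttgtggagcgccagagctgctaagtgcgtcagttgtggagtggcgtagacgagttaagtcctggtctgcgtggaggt
PRPF6: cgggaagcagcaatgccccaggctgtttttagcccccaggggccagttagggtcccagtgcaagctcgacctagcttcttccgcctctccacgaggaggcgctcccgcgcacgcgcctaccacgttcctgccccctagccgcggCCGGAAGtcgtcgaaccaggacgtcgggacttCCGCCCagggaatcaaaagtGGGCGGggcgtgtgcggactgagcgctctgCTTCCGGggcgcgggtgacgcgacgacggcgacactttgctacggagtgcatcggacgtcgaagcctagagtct
The ETS core occurs once in the promoters of SNRPD2 and SRSF5 and 2 times in that of PRPF6. It was present in 21 of the 63 member promoters (33.3%), in 19.4% of the 10633 promoters of tested genes and in 10.7% of all 27305 promoters. CCAAT was present in 44.4% of member promoters against 36.9% for tested genes. The GC box was present in 60.3% against 69.8%, the E-box in 12.7% against 9.93%, and TATAAA in 9.52% against 5.73%. The member promoters include those of untested members, such as SNRPN and SRSF12, so the 63 and the promoters of tested genes are unlike sets. No test was run on these shares, and a match is a description of sequence only.

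Members were well expressed. The median of the mean FPKM over the 6 libraries was 30.1 for the 66 tested members and 4.61 for all 14748 tested genes. SNRPB, a core Sm protein of the snRNP ring, was highest at 178 FPKM, followed among the hnRNPs by HNRNPA1 at 119 FPKM. U2AF1 was the lowest tested member at 0.392 FPKM. By family, the median was 42.3 FPKM for SF3A and SF3B, 35.7 for hnRNPs, 31.7 for SR proteins, 20.9 for SNRP proteins and 13.9 for PRPF proteins.

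The question was whether these genes differ between shPUS1 and shControl cells. None of the 66 tested members passed an adjusted p of 0.05 in either direction in edgeR, where 0.841% of all tested genes were called lower and 1.74% higher. At an unadjusted p under 0.05, 15 members were lower and 0 were higher, against 12.8% and 12.6% of all tested genes. The 15 are 22.7% of the tested members. Most members leaned one way: 59 of 66 had a fitted fold change below 0 (89.4%, against 52.7% of all tested genes), with a median log2 fold change of -0.31 against -0.03. The 3 shPUS1 libraries lay wholly below the 3 shControl libraries for 14 members and wholly above for 2, where 17.3% and 18.8% of all tested genes did so. Scaled by library totals without TMM, 25 members (37.9%) lay wholly below, where 19.7% of all tested genes did so. The 95% intervals of 51 members held 0, and those of 54 lay within -1 and 1 on the log2 scale.

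**Figure D1:**
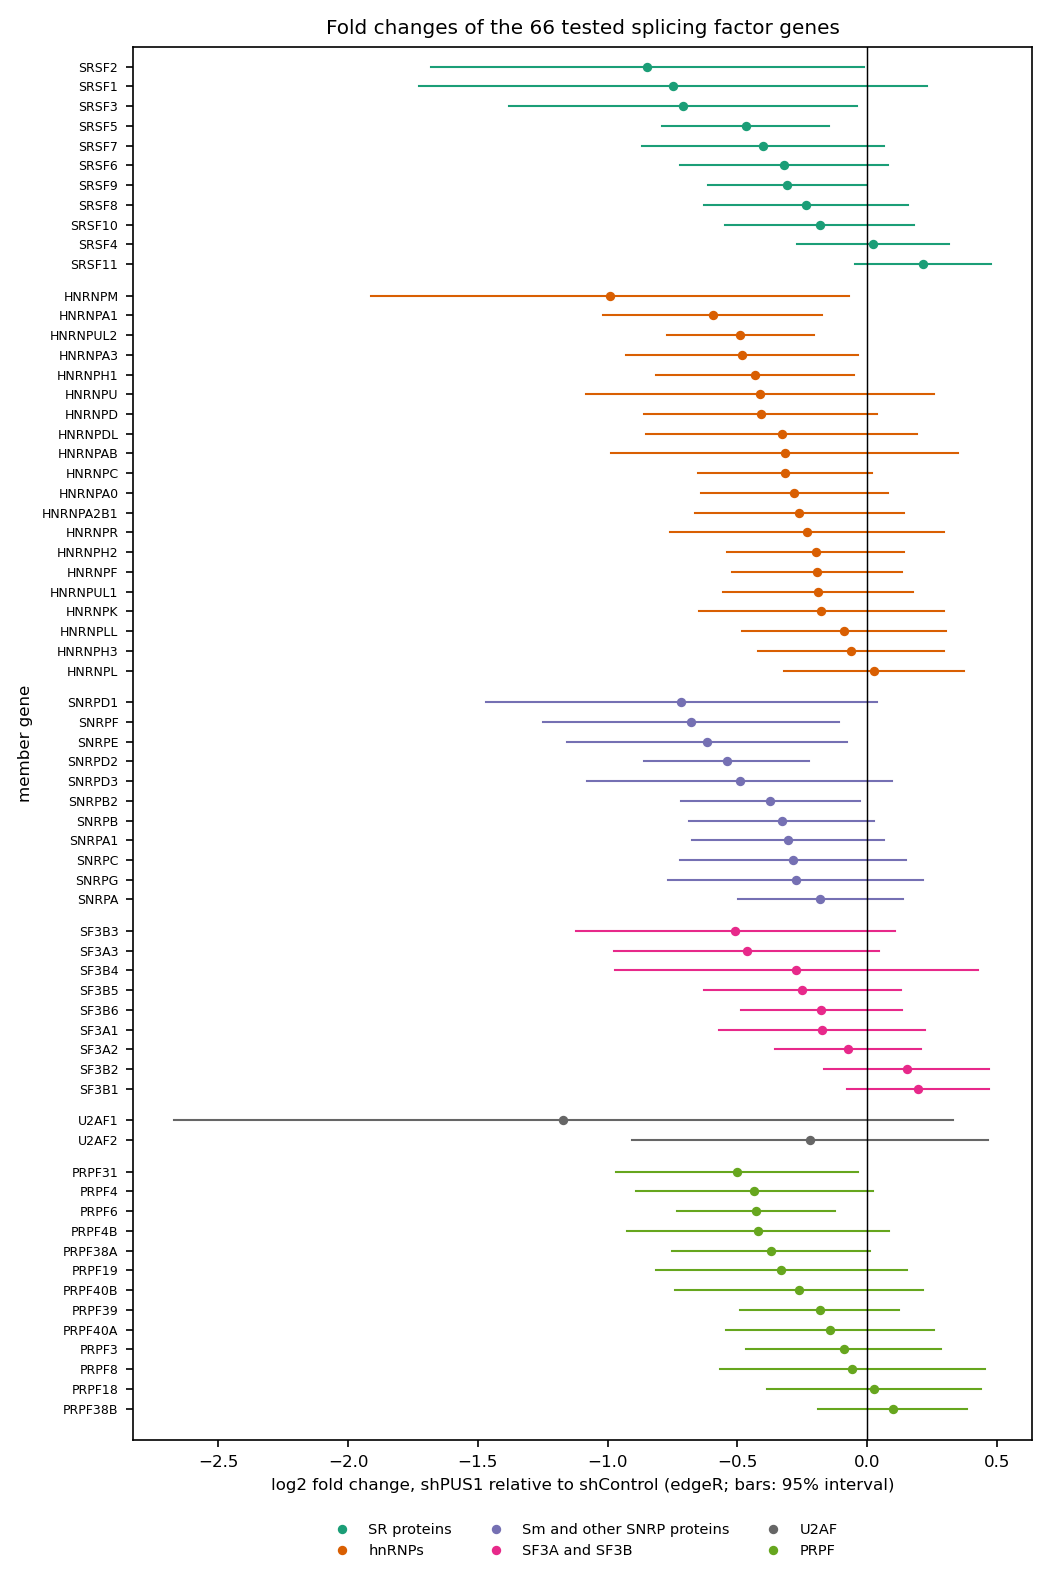
Log2 fold change (shPUS1 relative to shControl) of the 66 tested members, 1 row a gene, grouped and coloured by family, with bars for the 95% interval from edgeR. Points of 59 genes lie left of 0, and the intervals of 51 genes cross it.

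One control library weighed on this shift. shControl replicate 2 was the highest control for 57 of the 66 members (86.4%, against 42.4% of all tested genes). Its level was over 1.5 times the mean of the other 2 controls for 24 members (36.4%, against 15.8%) and over 2 times for 9. The median difference of the members from the shControl mean, in log2 units, was -0.09, 0.32 and -0.23 in shControl replicates 1 to 3 and -0.26, -0.33 and -0.20 in shPUS1 replicates 1 to 3. The groups overlap in this measure, since shControl replicate 3 lies among the shPUS1 libraries. Without shControl replicate 2 the median fold change was -0.12, 47 members were below 0 and 13 members turned from below to above 0. Of the 14748 tested genes, 7770 were below 0 with that library and 7669 without it, where their median was -0.02.

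Without that library, SNRPD2, HNRNPUL2 and SRSF5 passed as lower and 0 members as higher, where 8.79% and 9.8% of all tested genes were called. Of the 15 members at an unadjusted p under 0.05, 11 were also under it without that library. There 13 members (19.7%) were lower at that threshold, against 17.2% of all tested genes. With all 6 libraries DESeq2 called SNRPD2, HNRNPA1 and HNRNPUL2 lower (5.36% of genes over the whole table). limma with voom and library weights called those 3 with SRSF5 and PRPF6 (9.48% of genes), and edgeR with no filter on low counts called HNRNPM and HNRNPA1 (1.95%). Without shControl replicate 3, HNRNPA1 alone was called lower in edgeR (adjusted p = 0.0487), with 1.05% of genes called. No setting called a member higher. 45 members were fitted below 0 whichever library was left out. These fits share most of their libraries, and the same count over all tested genes is not given.

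**Figure D2:**
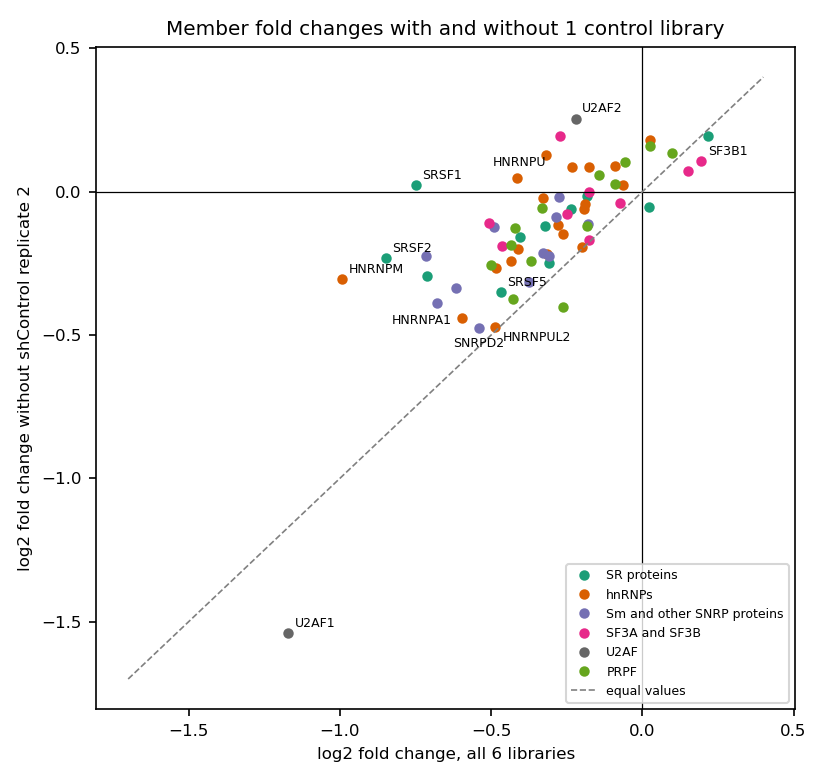
Log2 fold change of each of the 66 tested members with all 6 libraries (x axis) and without shControl replicate 2 (y axis), coloured by family, with a dashed line for equal values. SRSF1, SRSF2 and HNRNPM lie far above the line, whereas SNRPD2 and HNRNPUL2 lie close to it.

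Among the SR proteins, 9 of 11 tested were fitted lower (81.8%, against 52.7% of all tested genes), with a median of -0.32. Without shControl replicate 2, 9 were. At an unadjusted p under 0.05, 4 were lower (36.4%, against 12.8% of all tested genes). SRSF5, an SR protein that acts through exonic enhancers, was at 41.59, 48.15 and 38.25 FPKM in shControl and 30.66, 28.78 and 31.85 FPKM in shPUS1. The groups did not overlap, and the log2 fold change was -0.47 (SE 0.139, adjusted p = 0.0982, edgeR). SRSF2, which binds exonic enhancers, was at 49.03, 122.59 and 49.67 FPKM in shControl and 38.92, 40.77 and 42.86 FPKM in shPUS1. All shPUS1 libraries were lower, but shControl replicate 2 alone was far above the rest, and the fold change of -0.85 became -0.23 without it. SRSF3, a small SR protein that also aids mRNA export, was at 43.03, 73.47 and 33.25 against 31.31, 26.82 and 32.71 FPKM, with a fold change of -0.71 that became -0.29. SRSF1, the founding SR protein and a known oncogene in breast tissue, was at 26.33, 79.96 and 27.35 FPKM in shControl and 25.68, 27.09 and 26.70 FPKM in shPUS1. Here the libraries other than shControl replicate 2 nearly coincide, and the fold change of -0.75 (adjusted p = 0.300, edgeR) became 0.02 without it. In GENCODE release 29, 45.7% of the 100-base stretches of SRSF1 transcripts also occur in the overlapping locus AC015813.2, so its counts are uncertain. SRSF9, at 58.79, 57.95 and 47.54 against 43.55, 43.46 and 43.70 FPKM, was named after its values were seen, as the fourth at an unadjusted p under 0.05. On the opposite strand, SRSF2 overlaps MFSD11 and SRSF9 overlaps GATC. SRSF11 had the highest fold change of all members, 0.22 (adjusted p = 0.268, edgeR), with 20.12, 17.97 and 18.86 against 20.13, 23.37 and 21.60 FPKM.

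Of the hnRNPs, 19 of 20 tested were fitted lower (95%, against 52.7% of all tested genes), with a median of -0.30. Without shControl replicate 2, 13 were. At an unadjusted p under 0.05, 5 were lower (25%, against 12.8% of all tested genes). HNRNPUL2, a relative of the nuclear scaffold protein hnRNP U, had the smallest adjusted p of all members. It was at 49.12, 44.90 and 40.76 FPKM in shControl and 32.97, 30.25 and 31.38 FPKM in shPUS1. The groups did not overlap, and the fold change was -0.49 (SE 0.123, adjusted p = 0.0710, edgeR) and -0.47 without shControl replicate 2. The readthrough gene HNRNPUL2-BSCL2 shares 42.5% of its stretches. HNRNPA1, which binds splicing silencers, was at 149.93, 168.64 and 111.64 against 89.00, 87.90 and 104.35 FPKM. The groups were again apart, with a fold change of -0.60 (SE 0.182, adjusted p = 0.104, edgeR), and 17.5% of its stretches recur in 11 other genes, led by the pseudogene HNRNPA1P48.

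HNRNPM, a splicing regulator linked to mesenchymal isoforms, was at 27.35, 66.75 and 21.91 FPKM in shControl and 19.51, 18.46 and 20.20 FPKM in shPUS1. shControl replicate 2 was 2.85 times the mean of the other controls, and the fold change of -0.99 (SE 0.398, adjusted p = 0.173, edgeR) became -0.31 without it. HNRNPU, a chromatin-associated RNA-binding protein, was at 21.58, 43.69 and 21.38 against 20.59, 22.18 and 21.91 FPKM, and its fold change of -0.41 turned to 0.05. HNRNPC, which binds uridine tracts, was at 103.38, 111.39 and 88.47 against 79.79, 72.43 and 88.14 FPKM (fold change -0.32, 95% interval -0.65 to 0.02). HNRNPA2B1, an RNA sorting and splicing factor, had -0.26 and HNRNPK, a poly(C)-binding protein, -0.18. Both had overlapping groups. HNRNPL, a binder of CA repeats, was the one tested hnRNP fitted higher, at 0.03. HNRNPA3 (-0.48) and HNRNPH1 (-0.43), named after their values were seen, complete the 5.

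**Figure D3:**
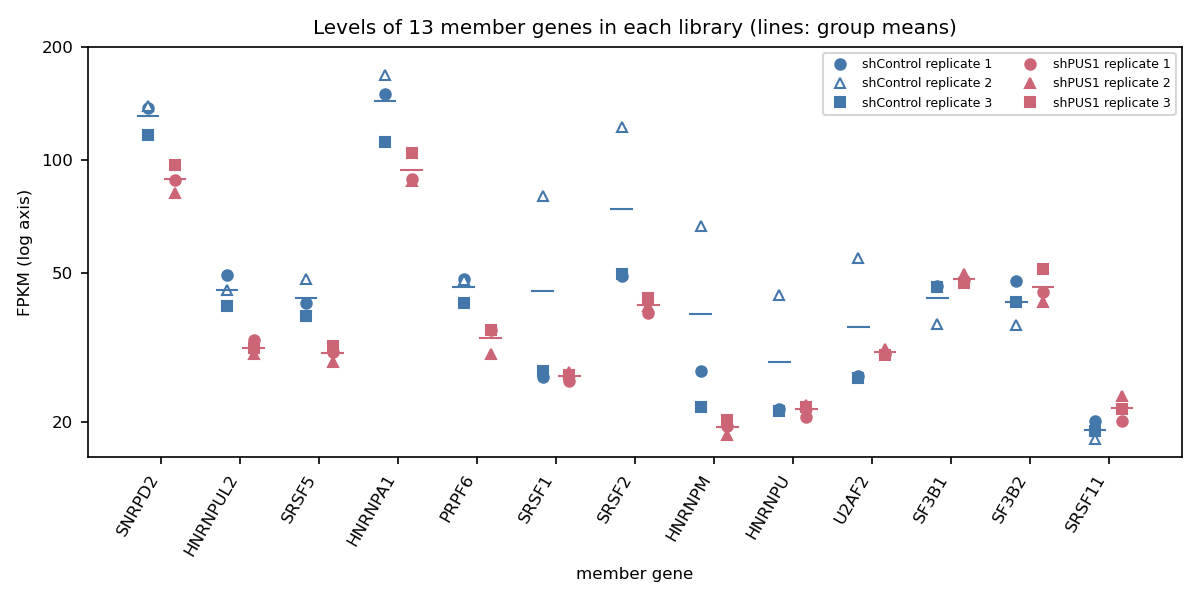
FPKM (log axis) of 13 members in each library, with shControl in blue, shPUS1 in red, marker shape for the replicate number, an open triangle for shControl replicate 2 and lines for group means. The groups are apart for SNRPD2, HNRNPUL2, SRSF5, HNRNPA1 and PRPF6, while the open triangle alone lies high for SRSF1, HNRNPU and U2AF2.

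All 11 tested SNRP proteins were fitted lower, with and without shControl replicate 2 (median -0.37 and -0.22), against 52.7% of all tested genes with all libraries. At an unadjusted p under 0.05, 4 were lower (36.4%, against 12.8% of all tested genes). SNRPD2, an Sm protein of the ring that encircles the snRNAs, was at 137.88, 139.42 and 116.12 FPKM in shControl and 88.41, 81.34 and 96.65 FPKM in shPUS1. Every shPUS1 library lay below every shControl library. The fold change was -0.54 (SE 0.138, adjusted p = 0.0720, edgeR) and -0.48 without shControl replicate 2 (adjusted p = 0.0273, edgeR). SNRPD2 overlaps QPCTL on the opposite strand, and whether the counting used strand is not given in the sources used here. SNRPD1, its neighbour in the ring, was at 13.74, 26.17 and 10.85 against 9.48, 9.36 and 11.89 FPKM. The groups overlapped, and the fold change of -0.72 became -0.22 without shControl replicate 2. SNRPB was at 209.52, 224.29 and 162.96 against 158.31, 152.87 and 157.46 FPKM (-0.33, 95% interval -0.68 to 0.02). The other 3 at an unadjusted p under 0.05, named after their values were seen, were the Sm proteins SNRPE (-0.62) and SNRPF (-0.68) and the U2 protein SNRPB2 (-0.37).

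The SF3A and SF3B subunits hold the branch point in the U2 snRNP. Of these, 7 of 9 were fitted lower (77.8%, against 52.7% of all tested genes), with a median of -0.18. Without shControl replicate 2, 5 were. At an unadjusted p under 0.05, 0 were lower, against 12.8% of all tested genes, and 0 were higher. SF3B1, the large subunit that is recurrently mutated in cancer, was at 46.14, 36.41 and 45.64 FPKM in shControl and 47.88, 49.49 and 46.78 FPKM in shPUS1. The groups did not overlap, and the fold change was 0.20 (SE 0.119, adjusted p = 0.333, edgeR). Here shControl replicate 2 was the lowest control. SF3B2, another SF3B subunit, had 0.15 and SF3A1, the largest SF3A subunit, -0.18. SF3A3, at 25.16, 36.40 and 21.39 against 19.82, 17.75 and 21.97 FPKM, had the smallest p among those fitted lower (fold change -0.46, adjusted p = 0.231, edgeR).

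U2AF recognises the end of the intron next to the downstream exon. U2AF2, its large subunit, was at 26.52, 54.80 and 26.24 against 30.37, 31.28 and 30.16 FPKM. Its fold change of -0.22 turned to 0.26 without shControl replicate 2. U2AF1, the small subunit, had few counts, and the reason was not tested. The table gave it 203, 50 and 31 counts in shControl and 43, 50 and 45 in shPUS1, and its near-identical copy U2AF1L5 67, 104 and 64 against 71, 67 and 69. Summed, the 2 genes were at 1.62, 0.71 and 0.60 FPKM in shControl and 0.56, 0.58 and 0.60 FPKM in shPUS1. U2AF1L5 shares 89.4% of the U2AF1 stretches. The first 60 coding bases of transcript U2AF1-201 are shown as an example of shared sequence. The same bases occur in 7 of the 12 U2AF1L5 transcripts. Whether read pairs covering them can be told apart was not tested.
U2AF1 and U2AF1L5: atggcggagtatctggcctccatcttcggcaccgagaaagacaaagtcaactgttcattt
The fold change of -1.17 (95% interval -2.67 to 0.33) rested on shControl replicate 1 and was 0.12 without it.

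Of the 13 PRPF proteins, 11 were fitted lower (84.6%, against 52.7% of all tested genes), with a median of -0.26. Without shControl replicate 2, 8 were. At an unadjusted p under 0.05, 2 were lower (15.4%), near the 12.8% of all tested genes. PRPF6, which bridges U5 and U4/U6 in the tri-snRNP, was at 48.02, 47.88 and 41.57 FPKM in shControl and 35.22, 30.38 and 35.05 FPKM in shPUS1. The groups did not overlap, and the fold change was -0.43 (SE 0.131, adjusted p = 0.104, edgeR). PRPF31 (-0.50), a tri-snRNP protein that overlaps TFPT on the opposite strand and was named after its values were seen, was the other. PRPF8, the scaffold of the catalytic centre, was at 27.50, 47.37 and 45.71 against 42.42, 38.64 and 33.32 FPKM (-0.06, 95% interval -0.57 to 0.45). PRPF19, the ubiquitin ligase of the PRP19 complex, had -0.33 and, without shControl replicate 2, -0.06. PRPF38B had 0.10, the smallest p among the PRPF genes fitted higher (adjusted p = 0.645, edgeR).

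In all, members took 1.34%, 1.75% and 1.20% of the counts in shControl replicates 1 to 3 and 1.14%, 1.11% and 1.20% in shPUS1 replicates 1 to 3. The hnRNPs made the greater part, from 0.591% to 0.969% of a library. shControl replicate 2 held the highest share for each of the 6 families.

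**Figure D4:**
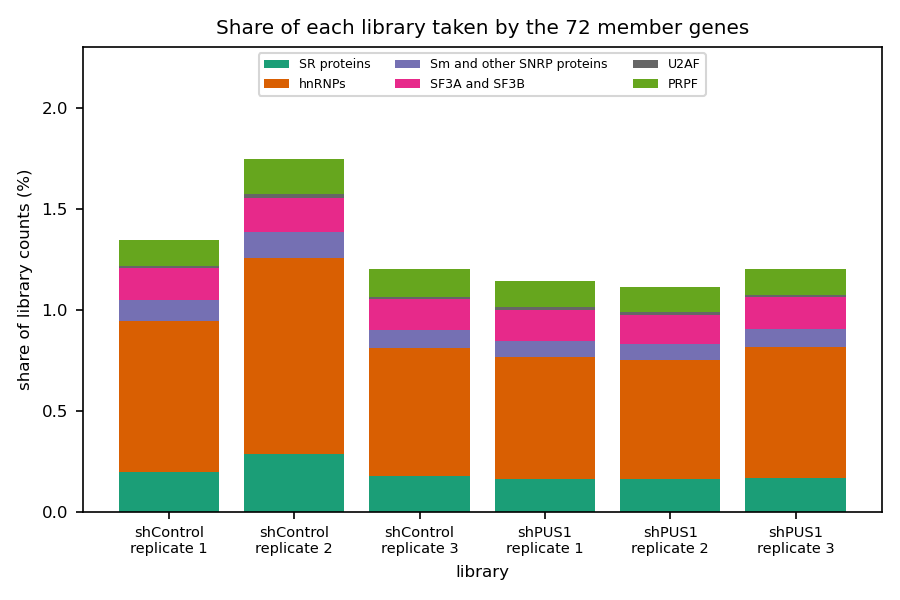
Share of each library's counts (percent) taken by the 72 members, stacked by family, for the 3 shControl and 3 shPUS1 libraries. shControl replicate 2 has the tallest bar at 1.75%, and shControl replicate 3 and shPUS1 replicate 3 are alike at 1.20%.

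A wider list of 145 symbols from general knowledge, covering the rest of the spliceosome and its regulators, had 145 tested rows. In edgeR, 2 were called lower and 0 higher, where 0.841% and 1.74% of all tested genes were called. At an unadjusted p under 0.05, 27 were lower (18.6%) and 5 higher, against 12.8% and 12.6% of all tested genes. DDX17, a DEAD-box RNA helicase, was at 19.50, 22.35 and 23.68 FPKM in shControl and 12.50, 13.46 and 11.38 FPKM in shPUS1 (log2 fold change -0.79, SE 0.13, adjusted p = 0.0341, edgeR). CLK2, a kinase that phosphorylates SR proteins, was at 6.87, 6.53 and 6.22 against 4.03, 3.30 and 3.87 FPKM (-0.78, SE 0.153, adjusted p = 0.0462, edgeR). Both fell with groups that did not overlap, and without shControl replicate 2 they were at -0.75 and -0.76. In edgeR, leaving out shControl replicate 1 (adjusted p = 0.0759 and 0.1001) or any 1 shPUS1 replicate (0.189 to 0.222 and 0.189 to 0.260) ended both calls, as it did that of every gene called lower, and leaving out shControl replicate 3 ended that of CLK2 (0.0515). DDX17 overlaps KDELR3 and CLK2 overlaps HCN3 on the opposite strand. Over all tested genes, 52.7% were fitted lower. The SMN and exon junction complex genes were fitted lower in 20 of 21 (median -0.34) and the tri-snRNP and LSm genes in 15 of 19 (-0.33). The SR-related proteins and SR kinases were fitted lower in 11 of 20 (-0.02), the PRP19 complex and catalytic step proteins in 13 of 22 (-0.10), the splicing regulators in 31 of 38 (-0.16), the U1 and U2 snRNP partners in 13 of 16 (-0.25) and the minor spliceosome proteins in 5 of 9 (-0.22). The gene with the smallest p of each remaining group did not pass the test in edgeR with all libraries. These were LSM4, an LSm ring protein (-0.61, adjusted p = 0.0613), MAGOHB, an exon junction core protein (-1.33, 0.0676), and PPIE, a cyclophilin (-0.51, 0.0812). The others were DDX42, a helicase of the U2 snRNP (-0.41, 0.144), and CENATAC, a minor spliceosome protein (0.28, 0.253), all from edgeR. LSM4, MAGOHB and PPIE were called lower in DESeq2, with voom and library weights and without shControl replicate 2. There 5.36%, 9.48% and 8.79% of all genes were called lower. DDX42 and CENATAC were called in none of these settings.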

How the data were processed

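Poly(A) RNA of 3 shControl and 3 shPUS1 MDA-MB-231 libraries was sequenced. The authors state that they aligned reads with HISAT2 and counted them with HTSeq 0.6.1. Per gene, they deposited estimated counts, with 29.8% to 31.8% of the values above 0 in a library not whole. Plain HTSeq read counts would be whole, and how the deposited values were made from them is not given in the sources used here. The authors also deposited FPKM, which equal the deposited counts scaled by exonic length and library total to within 0.005. Genome build, annotation release and strand setting are not given in the sources used here. Coordinates of all 72 members overlapped those of GENCODE release 29 (GRCh38), 23 with the same start and end, and 33 members overlap a gene on the opposite strand.

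After rounding, filterByExpr kept 14748 genes. These were normalised by TMM and compared by quasi-likelihood in edgeR 4.0.16 (R 4.3.3, prior count 2, Benjamini-Hochberg adjustment, group as the only term), a script tested on simulated data. An adjusted p under 0.05 at any fold counted as called. Alternatives used DESeq2 1.42.0 and limma 3.58.1, the latter with voom weights or on log2(FPKM + 1) and log2(FPKM + 0.1) where the mean FPKM reached 1. Tables were handled in Python 3.11.15 with pandas 2.3.3, numpy 2.4.6 and matplotlib 3.10.9. Library totals ran from 14241505 to 19625998. The intervals hold both counting error and differences between libraries, and their parts were not separated. An exact permutation test of 3 against 3 cannot go below p = 0.1 and was not used. Stretches of 100 bases of each member's transcripts in GENCODE release 29 were searched in all other genes. Of the members, 8 share at least 20% and 42 share none.

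Samples were grouped by their labels. The replicate numbers were not treated as pairs, because same-numbered libraries had residual correlations of -0.05, -0.03 and -0.19. The members, lists and naming rule were chosen with earlier results of these data known. The rule named PUS1, 17 members picked by role, any member that passed the test, the 3 highest and 3 lowest fold changes, the smallest p of each family in each direction and the smallest p of each group of other splicing genes. Reads of a multigene family may be split between copies.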

Additional observations from a re-analysis of the deposited data

How the results depend on the processing

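The members' median log2 fold change stayed below 0 under every alternative, from -0.44 to -0.12 when each library was left out in turn. Members called lower numbered 3 in DESeq2, 2 with no filter on low counts, 5 with voom and library weights, and 0 to 3 without each library, against 0 in edgeR, and 0 were called higher in any. At an unadjusted p under 0.05, 24 of 67 members were lower with no filter (35.8%, against 8.74% of all genes in that fit) and 9 of 66 with the replicate number as a block (13.6%, against 8.5%). Without each library the count ran from 3 without shPUS1 replicate 2 (4.55%, against 6.48%) to 34 without shControl replicate 3 (51.5%, against 16.1%), and 0 to 1 were higher. Members wholly lower in shPUS1 numbered 25 by library totals (37.9%, against 19.7%) and 25 of 64 by FPKM (39.1%, against 21%). With 1 library fewer, non-overlap is more frequent over all genes too, and the count ran from 15 without shControl replicate 2 (22.7%, against 25.8%) to 38 without shControl replicate 3 (57.6%, against 24.9%). Members wholly higher numbered 2 to 4 (3.03% to 6.06%), where 20.4% to 25.2% of all genes were. Other splicing genes called lower numbered 13 of 145 in DESeq2 (5.36% of all genes were) and 10 of 146 with no filter (1.95%). They numbered 18 of 145 with voom and library weights (9.48%), 0 with the replicate block (as for all genes) and 0 at a log2 fold change of at least 1. Without each library they ran from 0 to 14 of 145, the 14 without shControl replicate 2 (8.79%). Called higher were 1 in DESeq2 (7.05% of all genes), 1 with no filter (2.8%) and 8 with voom (11.5%). Without each library 0 to 7 were called higher, the 7 without shControl replicate 2 (9.8%).

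PUS1 lost its call in limma on log2(FPKM + 0.1) (-1.48, adjusted p = 0.0514) and on log2(FPKM + 1) (-1.001, adjusted p = 0.0544) and with the replicate block (-1.53, adjusted p = 0.0969), and lay from -1.84 to -1.19 without each library. With voom and library weights, fold changes turned above 0 for HNRNPK (0.0348), U2AF2 (0.20), SF3A1 (0.0471) and PRPF8 (0.27). Without each library, ranges crossed 0 for SRSF1 (-1.03 to 0.0226), HNRNPK (-0.35 to 0.0879), HNRNPU (-0.61 to 0.0463), U2AF1 (-1.58 to 0.12), U2AF2 (-0.42 to 0.26), SF3A1 (-0.32 to 4.04e-05), PRPF8 (-0.28 to 0.10) and HNRNPL (-0.0835 to 0.18). The cause of these changes was not tested. shControl replicate 2 had a voom weight of 0.101, where the other libraries had 0.715 to 4.08.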
